A study of Oryza sativa with 28 samples.

Results

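The rice genes described here were those whose RNA peaked in fertile panicles at the meiosis stage. They were chosen from the measured values: a locus with an LOC_Os identifier had to reach 1 FPKM (a count of fragments corrected for transcript length and for the depth of the library) in all 3 fertile meiosis-stage libraries, and was then ranked by its mean there divided by the largest mean of the other 3 groups plus 0.5. The 150 highest scores were taken, out of 16723 loci at the 1 FPKM floor, 45273 LOC_Os loci and 47919 genes in the table. The plants were all WXS, an indica rice line carrying the tms5 mutation, whose male fertility depends mainly on temperature. WXS(S) plants, which are male sterile, grew in a paddy field in summer. WXS(F) plants, which are male fertile, were moved from that field to a cooler chamber, averaging 22 °C, before early premeiosis, and both grew under 14 h of light and 10 h of dark. Young panicles were collected at meiosis (P3) or at the uninucleate microspore stage (P4), which gave the groups FP3, SP3, FP4 and SP4 with 3 RNA-seq libraries each. Fertility type, temperature and growing place changed together, so these cannot be told apart in any comparison of F with S, and the age of the plants was not given in the sources used here.

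As background, tms5 encodes a defective RNase Z, and rice carrying it fails to make pollen above a permissive temperature. Inside the anther, meiocytes divide to give tetrads of haploid microspores, while the tapetum, the layer that surrounds them, supplies nutrients and wall material and is later dismantled. Panicles also hold glumes, branches and other anther layers, so a whole panicle mixes many cell types. In such bulk samples, fewer cells of a type and less RNA per cell cannot be told apart.

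Total read counts per RNA library lay between 30577833 and 51193158. The meiosis label was checked against 9 meiotic loci, whose summed level was 35.9 to 42.2 FPKM in FP3 and 65.9 to 83.7 in SP3, against 18.1 to 20.2 in FP4 and 43.6 to 50.1 in SP4. Meiotic RNA was thus detected in all groups but was highest in SP3, so the 150 genes are named FP3-peaking genes here, by their rule, and none of the 9 meiotic loci was among them. Of 10 tapetum loci, summed levels were 66.7 to 82.3 FPKM in FP3, 35.7 to 50.002 in SP3, 1014 to 1096 in FP4 and 69.6 to 79.2 in SP4, and 4 green-tissue loci summed to 78.1 to 84.9, 52.3 to 88.8, 422 to 459 and 213 to 247 FPKM in the same order. The sums hide splits within the lists. By the edgeR limits given below, 5 of the 10 tapetum loci were higher and 3 lower in FP3 than SP3. Of the 9 meiotic loci 0 were higher and 4 lower, and of the 4 green-tissue loci 1 was higher and 1 lower. Over all genes 14.8% were higher and 6.74% lower. None of these lists contributed a member, no marker was at 0, and their part in the results below was not tested.

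Open chromatin was available for the same 4 groups as 2 ATAC-seq libraries each, in which the authors called transposase hypersensitive sites (THSs) with between 56084 and 63796 sites per library. The study's lists of differential THSs with their assigned genes, held here in shortened form, placed 11 regions at 9 of the FP3-peaking genes. Since those regions were listed for differing between groups, their pattern is a description with no test. LOC_Os01g18490 stood out because its RNA was present in fertile and nearly missing in sterile panicles while both of its upstream regions held THSs in sterile panicles. In the region at chr1:10401680-10402331 (MSU7, annotated as upstream and also assigned to LOC_Os01g18500), all 4 SP libraries held a THS, with MACS scores of 56.7 and 69.2 in SP3 and 89.2 and 135 in SP4, and none of the 4 FP libraries did. In the region at chr1:10400300-10400876, also assigned to LOC_Os01g18500, 3 SP libraries held one. The scores were 107 in SP3 replicate 2 and 186 and 178 in SP4, and again no FP library held a THS. The MACS score is −10 times the log10 of the caller's p-value, and the lowest score listed was 50, so a region without a THS may hold signal under that limit.

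Sequences of a pair of these sites are given because both were called in sterile libraries only, at genes whose RNA peaked in fertile ones. The first is at chr1:10401912-10402190, as called in SP3 replicate 1. The second is the first 150 bases of the THS at chr1:33698947-33699251. It was called only in SP4 replicate 1, with a MACS score of 56.7, near the lowest listed score of 50. That region was annotated as exon and upstream for LOC_Os01g58310, so the bases labelled upstream may be exonic. It was also assigned to LOC_Os01g58300. Both are on the plus strand of MSU7, from the study's listed THS sequences, and capitals mark matches to the W-box core (TTGAC or its complement GTCAA, the core bound by WRKY factors) and, in the second, the TATA-box core (TATAAA).
LOC_Os01g18490 upstream THS: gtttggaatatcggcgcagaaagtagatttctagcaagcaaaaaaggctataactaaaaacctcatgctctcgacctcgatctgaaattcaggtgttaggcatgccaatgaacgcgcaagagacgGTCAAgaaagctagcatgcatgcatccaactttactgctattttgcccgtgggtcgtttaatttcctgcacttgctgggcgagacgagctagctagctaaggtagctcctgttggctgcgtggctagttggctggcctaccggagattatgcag
LOC_Os01g58310 upstream THS, first 150 bases: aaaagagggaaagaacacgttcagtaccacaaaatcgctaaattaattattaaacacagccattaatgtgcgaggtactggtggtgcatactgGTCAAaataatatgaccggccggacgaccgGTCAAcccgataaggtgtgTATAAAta
The first sequence held 1 W-box core, at position 126 counted from its 5′ end, and 30.6% of 353 THSs read over the same length held at least 1. The second held 2, at positions 94 and 124, against 17.6% of 556 regions with at least 1, and its TATA-box core began at position 143, against 4.14%. On either strand, neither stretch held the DRE/CRT core (CCGAC), the G-box (CACGTG), the GCC box (GCCGCC) or the heat shock element motif (GAANNTTC). A match is only a match of letters.

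**Figure D1:**
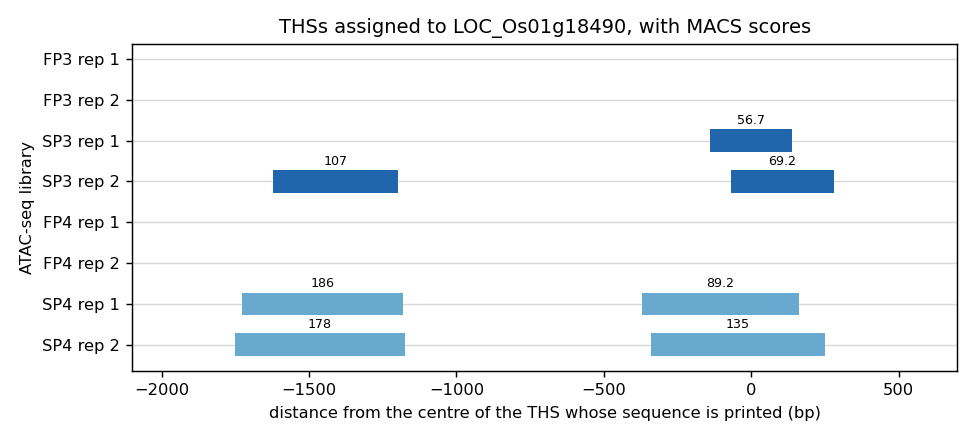
THSs near LOC_Os01g18490 in the 8 ATAC-seq libraries, by distance in bases from the centre of the printed site, with 1 line per library and the MACS score beside each bar. The sterile libraries carry the sites at this gene (scores 56.7 to 186), and no fertile library carries a site in either region.

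LOC_Os01g18490 itself measured 34.0, 31.2 and 32.5 FPKM in FP3, with SP3 at 0.0179, 0.0214 and 0.0695, FP4 at 21.8, 10.3 and 19.3 and SP4 at 0.0345, 0.449 and 0.0483. Its fertile libraries did not overlap its sterile ones at either stage. LOC_Os01g58310 measured 7.68, 6.38 and 7.15 FPKM in FP3, with SP3 at 0, 0.183 and 0.217, FP4 at 1.95, 2.32 and 2.62 and SP4 at 0.334, 0.249 and 0.604. LOC_Os02g32140 showed the other arrangement: a THS over its 5′ end at chr2:18988173-18988637 was called in all 4 FP libraries (scores 61.5 to 113) and in no SP library, and its RNA was 5.95, 6.03 and 5.38 FPKM in FP3, with SP3 at 0.103, 0.216 and 0.0687, FP4 at 3.12, 2.80 and 2.49 and SP4 at 0.373, 0.348 and 0.187. LOC_Os02g42990 had an upstream THS at chr2:25877359-25877983 in all 4 FP libraries and 1 SP library. At LOC_Os01g68500, an upstream region carried a THS in 1 FP and 3 SP libraries, and at LOC_Os11g25454 a downstream one was called only in SP4 replicate 2. The regions at LOC_Os10g20470, LOC_Os01g62610 and LOC_Os01g55340 held a THS in nearly every library, so presence alone did not separate the groups there.

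As a set, the 150 genes ranged from 1.16 to 5280 FPKM in FP3 by group mean, with a median of 12.3. Their median group means elsewhere were 2.52 in SP3, 4.80 in FP4 and 2.46 in SP4 FPKM. Most were of low or middle level: 37 averaged under 5 FPKM in FP3, 58 from 5 to 20, 35 from 20 to 50, and 20 at least 50. The score, which chose them, ran from 1.75 to 7.80 with a median of 2.06. The next highest group was FP4 for 96 genes, SP3 for 37 and SP4 for 14, and 3 genes were at 0 in all other groups. These counts rest on the group means that the rule used. They were not set beside a share over all loci at the floor, and nothing is read from them. FP3 exceeded the next group by 1.78-fold at the lowest and 2.44-fold at the median over the 147 genes detected elsewhere, and by 2-fold or more in 114 of the 150. In 143 of the 150, every FP3 library lay above all 9 other libraries, which was so for 6.92% of the loci at the floor; the rule made this likely and nothing is read from it. Summed over all genes but the one ranked first, the level was 3954 to 4439 FPKM in FP3, 1065 to 1269 in SP3, 1689 to 1795 in FP4 and 948 to 1037 in SP4.

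**Figure D2:**
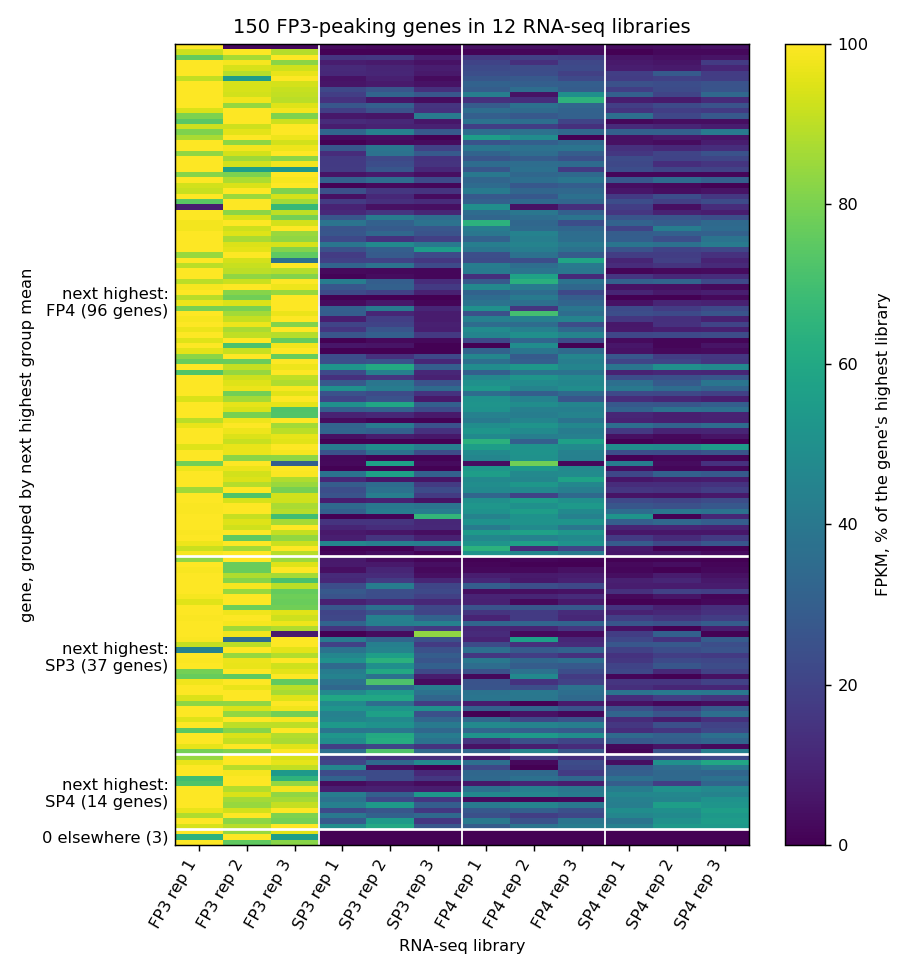
Level of each of the 150 FP3-peaking genes (1 line each) in the 12 RNA-seq libraries, as a percent of that gene's highest library, grouped by the group with the next highest mean. The FP3 columns are the brightest (highest) in most genes, by construction, and many of the 96 genes whose next group is FP4 keep an intermediate level there. Not all do: LOC_Os09g28400 averaged 0.0598 FPKM in FP4 and 3.16 in FP3. The 3 genes at the bottom were at 0 in every other group.

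Replicates of FP3 were close for most members, with a median coefficient of variation of 8.19% against 7.48% over all loci at the floor. It was smallest for LOC_Os05g28740 (1.27%) and LOC_Os01g72530 (1.33%), and largest for LOC_Os03g51600 (163%) and LOC_Os01g70860 (79.3%). The genes were spread over all 12 chromosomes, from 5 on chromosome 7 to 22 on chromosome 3, or 0.397% (chromosome 7) to 1.45% (chromosome 4) of the loci at the floor there. Any annotation was at hand for 74 genes (a Swiss-Prot description for 16, a gene ontology term for 62), and none for 76. The study's annotated lists were held in shortened form, and only 18 members had a line in the one with descriptions. All 16 described members lie on chromosome 1, which holds 20 members. A gene counted here as without annotation may therefore have one in the full lists. The gene ontology lists had been drawn from genes that differed between these same samples, so they serve only as names here.

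The highest score belonged to LOC_Os03g51600, and it rested on 1 library. Its FP3 values were 15202, 307 and 329 FPKM (2325302, 41846 and 42835 reads), while SP3 measured 431, 408 and 369, FP4 704, 691 and 634 and SP4 529, 537 and 734. FP3 replicates 2 and 3 therefore lay below every library of the other groups, and without FP3 replicate 1 the gene fell to rank 14453 with a score of 0.47. The locus is kept in the list as the rule gives it, and the sums over members above leave it out.

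The other genes of highest score were low in every library outside FP3, and several were close to silent. LOC_Os03g46100, a gene with a cell wall term, measured 4.43, 5.32 and 4.55 FPKM in FP3, with SP3 at 0.374, 0.187 and 0.0795, FP4 at 0.0299, 0.102 and 0.0555 and SP4 at 0.0413, 0.0329 and 0.0146. LOC_Os04g23140 measured 5.17, 3.98 and 4.91 FPKM in FP3, with SP3 at 0.367, 0.358 and 0.211, FP4 at 0.0675, 0.0202 and 0 and SP4 at 0.137, 0.187 and 0.0792. LOC_Os09g28400, with an extracellular region term, reached 3.11, 3.37 and 2.999 FPKM in FP3 and at most 0.0945 in any other library. In these genes all other groups sat at a small fraction of the FP3 level, with values that rest on few reads. LOC_Os10g39610 measured 4.55, 3.55 and 4.61 FPKM in FP3, with SP3 at 0.197, 0.470 and 0.114, FP4 at 0.0940, 0.125 and 0.200 and SP4 at 0.0804, 0 and 0.0917. LOC_Os01g03680, described as a Bowman-Birk type bran trypsin inhibitor, a class of seed protein that blocks serine proteases, measured 5.58, 4.92 and 4.84 FPKM in FP3, with SP3 at 0.671, 0.686 and 0.233, FP4 at 0.449, 0.410 and 0.424 and SP4 at 0.214, 0.423 and 0.261. It was detected in every library, and FP3 did not overlap the rest. LOC_Os05g05930 had 8.46, 6.94 and 6.02 FPKM in FP3 and between 0.538 and 1.47 in the other libraries. LOC_Os06g11840, with a carbohydrate metabolism term, had 15.4, 17.6 and 20.2 FPKM in FP3, with SP3 at 3.12, 3.27 and 1.72, FP4 at 3.36, 3.798 and 3.63 and SP4 at 1.17, 0.814 and 1.09, with FP4 just above SP3 and SP4 lowest. LOC_Os03g19290, with transporter terms, had 6.82, 6.72 and 5.63 FPKM in FP3 and from 0.342 to 1.46 elsewhere.

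Of all members, 3 had no read in any of the 9 libraries outside FP3. LOC_Os06g05440 had 173, 139 and 150 reads in FP3 (2.52, 2.14 and 2.41 FPKM), LOC_Os08g30510 had 96, 136 and 77, and LOC_Os04g40190 had 133, 96 and 100. With 3 counts over a group as the floor for 0, which covers counting error only, FP3 was at least 123-fold, 82.2-fold and 87.5-fold higher than SP4 for these genes in that order, and the bounds against SP3 (141, 94.0 and 100.1) and FP4 (152, 102 and 108) were larger. LOC_Os04g14990 had no read in SP3 and was at least 512-fold higher in FP3, but it was also present in FP4.

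**Figure D3:**
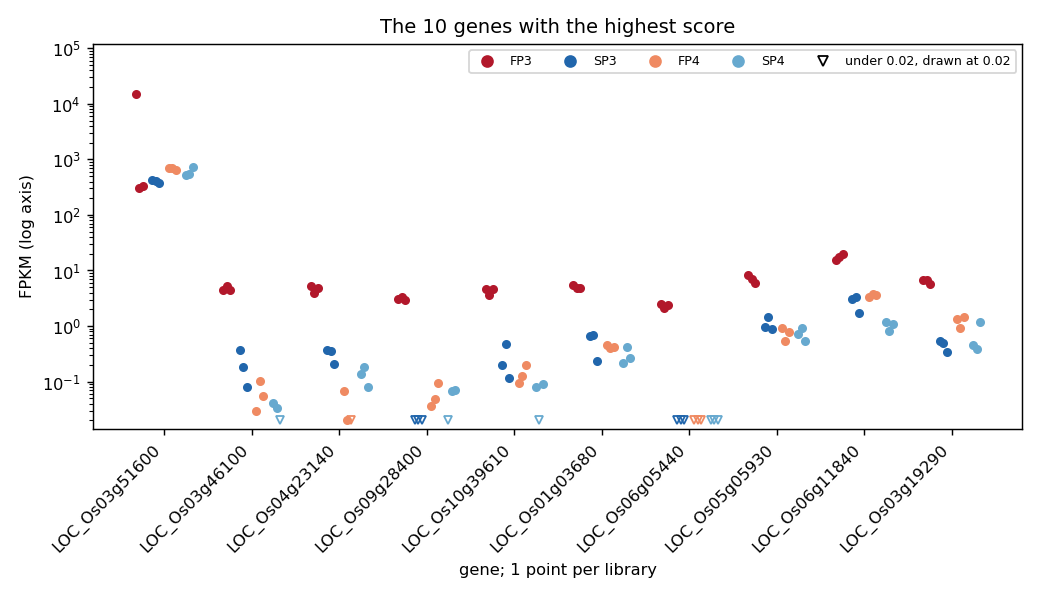
FPKM (log axis) of the 10 genes with the highest scores in each of the 12 libraries, coloured by group, with values under 0.02 FPKM drawn as open triangles at 0.02. In the first gene a single FP3 library lies apart from all others, whereas in the other 9 genes the 3 FP3 libraries lie together above the rest.

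By level rather than score, the most abundant member with even replicates was LOC_Os01g10400, described as metallothionein-like protein 3A, a small cysteine-rich protein of a family that binds metal ions. It measured 509, 511 and 467 FPKM in FP3, with SP3 at 35.2, 29.2 and 18.2, FP4 at 278, 292 and 268 and SP4 at 30.9, 30.4 and 30.7. Both fertile groups lay above both sterile groups without overlap, and the sterile libraries stayed between 18.2 and 35.2. LOC_Os03g10210 followed with 330.4, 298 and 294 FPKM in FP3, with SP3 at 86.7, 101.3 and 54.4, FP4 at 149, 164 and 147 and SP4 at 69.8, 72.9 and 76.8. LOC_Os05g28740, with a vacuole term, had 191, 188 and 187 FPKM in FP3, with SP3 at 61.3, 82.4 and 84.0, FP4 at 62.6, 62.5 and 60.9 and SP4 at 51.2, 46.4 and 55.9, so its other 3 groups lay close together. LOC_Os02g54140 had 159.5, 147 and 144 FPKM in FP3, with SP3 at 22.0, 24.7 and 14.5, FP4 at 73.5, 82.4 and 75.3 and SP4 at 37.4, 39.0 and 43.6. LOC_Os12g05210, with an energy metabolism term, measured 137, 125 and 133 FPKM in FP3, with SP3 at 71.4, 83.0 and 41.3, FP4 at 66.6, 72.4 and 61.5 and SP4 at 52.9, 68.2 and 65.0; SP3, FP4 and SP4 overlapped one another. LOC_Os03g61150, with the same term, measured 95.9, 94.3 and 117 FPKM in FP3, with SP3 at 6.11, 8.71 and 4.62, FP4 at 47.2, 39.2 and 40.3 and SP4 at 1.95, 2.08 and 2.28, a pattern of 4 separate levels. LOC_Os05g38040 (plastid term), LOC_Os07g10840 (carbohydrate metabolism), LOC_Os11g26780 and LOC_Os04g49000 had FP3 means of 102, 92.3, 77.8 and 76.3 FPKM.

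Products or symbols were at hand for 17 members, several by their closest Arabidopsis or maize entry. All but the homeobox gene lie on chromosome 1, since the descriptions came from a shortened list. The products of most other members are thus not covered here. Among regulators of transcription, LOC_Os01g66120, described as a NAC domain protein of the plant stress and development family, had 54.8, 51.3 and 20.4 FPKM in FP3, with SP3 at 10.6, 10.9 and 8.91, FP4 at 12.5, 12.9 and 32.2 and SP4 at 5.65, 10.4 and 5.46. LOC_Os01g74410, described by an Arabidopsis MYB entry, had 11.5, 10.4 and 10.2 FPKM in FP3, with SP3 at 0.312, 0.268 and 0.190, FP4 at 4.68, 4.43 and 4.54 and SP4 at 0.179, 0.305 and 0.321, with sterile libraries near the bottom of the scale at both stages. LOC_Os01g50940, described by an Arabidopsis bHLH factor induced by the hormone abscisic acid, had 22.4, 21.6 and 23.2 FPKM in FP3, with SP3 at 5.10, 6.17 and 3.75, FP4 at 6.34, 6.98 and 5.69 and SP4 at 11.3, 11.6 and 13.02. Here SP4 lay above FP4, the reverse of the MYB gene. LOC_Os01g55340, described by an Arabidopsis Dof zinc finger entry, had 15.9, 14.8 and 15.8 FPKM in FP3, with SP3 at 6.05, 9.05 and 4.95, FP4 at 8.88, 7.49 and 7.68 and SP4 at 3.46, 4.86 and 4.52. LOC_Os07g39320, the homeobox gene HOX14 of the study, had 21.7, 20.8 and 17.7 FPKM in FP3, with SP3 at 5.36, 6.55 and 11.995, FP4 at 8.48, 9.18 and 8.10 and SP4 at 5.52, 4.36 and 4.64.

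Among members acting on hormones and proteins, LOC_Os01g57610, a probable indole-3-acetic acid-amido synthetase of the GH3 family, which conjugates auxin to amino acids, had 22.7, 17.7 and 17.8 FPKM in FP3, with SP3 at 6.21, 8.35 and 4.85, FP4 at 5.80, 6.06 and 6.25 and SP4 at 3.35, 2.18 and 3.05. LOC_Os01g62610, a peptidyl-prolyl isomerase of the FKBP family by its Arabidopsis entry, had 18.8, 20.5 and 16.5 FPKM in FP3, with SP3 at 5.11, 3.29 and 3.07, FP4 at 8.48, 6.72 and 6.89 and SP4 at 1.24, 0.734 and 1.10. In both genes, fertile libraries lay above sterile ones of the same stage without overlap. The class I and class II small heat shock proteins, chaperones that hold unfolding proteins, were LOC_Os01g04380 with 3.51, 2.93 and 2.86 FPKM in FP3, with SP3 at 0.0287, 0.110 and 0.0632, FP4 at 0.471, 2.02 and 0.421 and SP4 at 0.555, 0.409 and 0.447, and LOC_Os01g08860 with 24.6, 21.7 and 24.2 FPKM in FP3, with SP3 at 2.06, 2.12 and 1.95, FP4 at 9.06, 10.6 and 9.79 and SP4 at 10.3, 12.5 and 11.6. LOC_Os01g72530, a probable calmodulin-like calcium-binding protein, had 7.59, 7.70 and 7.499 FPKM in FP3, with SP3 at 2.09, 2.39 and 1.31, FP4 at 3.58, 3.20 and 2.58 and SP4 at 0.371, 0.352 and 0.187. LOC_Os01g64120 (a ferredoxin, an electron carrier, by its maize entry), LOC_Os01g68290 (a serine/arginine-rich splicing factor) and LOC_Os01g37810 (a formin, which nucleates actin filaments) had FP3 means of 3.19, 6.46 and 1.55 FPKM. LOC_Os01g58440, an F-box protein with kelch repeats, had 2.26, 2.11 and 2.46 FPKM in FP3, with SP3 at 0, 0 and 0.176, FP4 at 1.58, 0.289 and 0.507 and SP4 at 0.159, 0 and 0.

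FP4 was compared with SP4, a contrast whose difference the rule did not use although both means set the score, to see how these genes stood between fertile and sterile panicles after meiosis. Of the 140 members with enough reads to be tested, 53 were called higher in FP4 (37.9%) and 5 lower (3.57%), a call being more than 1 log2 unit of change together with an edgeR adjusted p under 0.05; over all 24645 genes tested, the shares were 15.4% and 6.87%. The median log2 fold change was 0.81 for the members and 0.001 for all genes, and 119 of the 140 were positive. In 87 members (62.1%) every FP4 library lay above every SP4 library, and in 11 (7.86%) below, with 30% and 28.4% over all genes. The score treats FP4 and SP4 alike, but 10 members went untested for low counts, and members could pass the count filter through either group. The tapetum loci, of which 6 of 10 were higher and 2 lower in FP4, and the meiotic loci, of which 4 of 9 were lower, moved in the same contrast, and their part was not tested.

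The largest rises in FP4 were in genes with at most 2.28 FPKM in any SP4 library. LOC_Os01g18490, whose values and upstream sites are given above, had the largest (log2 fold change 6.43, SE 0.73, edgeR adjusted p = 0.000496; 1036 reads in FP4 and 10 in SP4). LOC_Os04g14990 measured 2.29, 2.72 and 1.94 FPKM in FP4 and 0, 0 and 0.167 in SP4 (log2 fold change 5.22, SE 1.03, edgeR adjusted p = 0.00579). LOC_Os10g28120 measured 14.8, 16.4 and 14.1 against 0.240, 0.593 and 0.389 FPKM (log2 fold change 5.20, SE 0.28, edgeR adjusted p = 2.12e-05). LOC_Os03g61150, with the energy metabolism term, rose by a log2 fold change of 4.41 (SE 0.09, edgeR adjusted p = 5.97e-07). LOC_Os03g12890 measured 9.14, 9.18 and 8.22 against 0.724, 0.309 and 0.385 FPKM (log2 fold change 4.23, SE 0.28, edgeR adjusted p = 4.58e-05). These 5 were picked among called members whose FP4 and SP4 libraries did not overlap, so nothing is read from that. LOC_Os01g18490 and LOC_Os04g14990, with 10 and 15 reads over SP4, could pass the count filter only through their reads in FP4. The same held for the F-box gene LOC_Os01g58440, with 12 reads over SP4. For these 3 genes the filter left higher in FP4 as the only call open, so their p-values are given as description. Among the 17 genes with a product or symbol, 8 were higher in FP4, none lower, 8 passed neither threshold and 1 went untested, against 15.4% higher and 6.87% lower over all genes. The MYB gene LOC_Os01g74410 rose by a log2 fold change of 4.04 (SE 0.22, edgeR adjusted p = 2.07e-05), the calmodulin-like gene LOC_Os01g72530 by 3.30 (SE 0.29, edgeR adjusted p = 0.000175), the metallothionein-like LOC_Os01g10400 by 3.20 (SE 0.04, edgeR adjusted p = 2.82e-07) and the FKBP gene LOC_Os01g62610 by 2.62 (SE 0.17, edgeR adjusted p = 5.13e-05). The GH3 gene LOC_Os01g57610 rose by 1.08 (SE 0.18, edgeR adjusted p = 0.00258), and without SP4 replicate 2 its log2 fold change was 0.90, under the limit. The calls for LOC_Os01g66120, LOC_Os01g64120 and LOC_Os01g58440 were each lost when 1 of several libraries was left out. Without FP4 replicate 3, SP4 replicate 1 or SP4 replicate 3 the NAC gene had edgeR adjusted p-values of 0.0927, 0.124 and 0.125. The ferredoxin gene had 0.0668 to 0.123 without any 1 of the FP4 libraries or of SP4 replicates 1 and 2, and the F-box gene 0.0547 to 0.148 without any 1 of the FP4 libraries or of SP4 replicates 2 and 3.

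The 5 lower members held more RNA in sterile than in fertile panicles at P4. LOC_Os03g12510, with cell wall and oxygen binding terms, measured 0.634, 0.338 and 0.443 FPKM in FP4 and 9.46, 9.84 and 11.1 in SP4 (log2 fold change -4.37, SE 0.24, edgeR adjusted p = 2.23e-05). LOC_Os03g08930 measured 0, 0.385 and 0.168 against 2.61, 2.11 and 2.89 (log2 fold change -3.66, SE 0.92, edgeR adjusted p = 0.0155), and without FP4 replicate 3 the edgeR adjusted p was 0.056. LOC_Os05g28210 measured 0.381, 0.425 and 0.518 against 1.43, 2.04 and 1.89 (log2 fold change -1.95, SE 0.26, edgeR adjusted p = 0.00106). LOC_Os04g36750 and LOC_Os07g47670 were lower by log2 fold changes of -1.64 (SE 0.32, edgeR adjusted p = 0.00571) and -1.24 (SE 0.10, edgeR adjusted p = 0.000139). In all 5, every FP4 library lay below every SP4 library, which was a condition for naming them. Every FP3 library lay above every SP3 library, which the rule made likely.

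**Figure D4:**
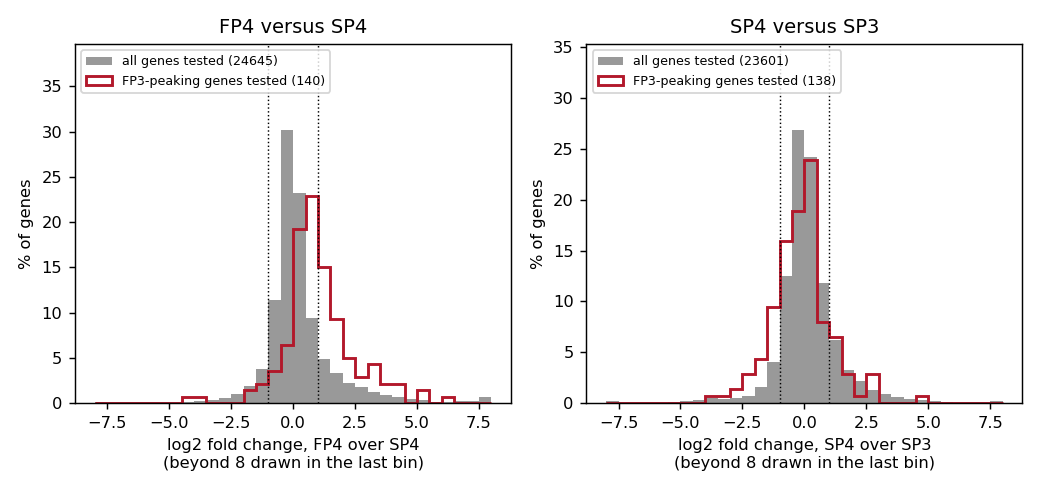
Distribution of log2 fold changes (horizontal axis) for the FP3-peaking genes and for all genes tested, in FP4 versus SP4 and in SP4 versus SP3, with dotted lines at −1 and 1. The members sit to the right of all genes in FP4 versus SP4 (median 0.81 against 0.001), and lie near 0 in SP4 versus SP3 (median −0.07 against 0.03).

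SP4 was compared with SP3 to describe how the genes changed between the stages in sterile panicles, where none of them peaked. Of 138 members tested, 15 were higher in SP4 (10.9%, against 12.8% of 23601 genes) and 25 lower (18.1%, against 6.85%). The median log2 fold change was −0.07, with 63 genes positive and 75 negative, and 0.03 over all genes. Every SP4 library lay above every SP3 library in 23 members (16.7%, against 25.4%) and below in 42 (30.4%, against 23.3%). Among the marker loci, 2 of 10 tapetum loci and 3 of 4 green-tissue loci were higher in SP4 and no meiotic locus was called, and their part was not tested.

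The members that rose included both genes described as small heat shock proteins, LOC_Os01g04380 (log2 fold change 2.62, SE 0.54, edgeR adjusted p = 0.0097) and LOC_Os01g08860 (log2 fold change 2.56, SE 0.16, edgeR adjusted p = 0.000128), and the bHLH gene LOC_Os01g50940 (log2 fold change 1.37, SE 0.12, edgeR adjusted p = 0.000387). LOC_Os10g32990 had 83 reads in SP4 and 3 in SP3, a depth-corrected ratio of 31.6 with an exact interval of 10.5 to 157 for counting error only, and an edgeR adjusted p of 0.0134 that became 0.0548 without SP4 replicate 1. LOC_Os04g36750 measured 0.0922, 0.181 and 0.0943 FPKM in SP3 and 0.932, 0.579 and 1.03 in SP4 (log2 fold change 2.71, SE 0.40, edgeR adjusted p = 0.00294), and LOC_Os05g36010 measured 0.146, 0.0555 and 0.0254 and 0.501, 0.439 and 0.477 (log2 fold change 2.67, SE 0.50, edgeR adjusted p = 0.00674). Those that fell were led by LOC_Os07g13234, at 1.63, 1.38 and 0.292 FPKM in SP3 and 0.0635, 0 and 0.159 in SP4 (log2 fold change -3.65, SE 1.06, edgeR adjusted p = 0.0323), a call lost without SP3 replicate 1, SP3 replicate 2 or SP4 replicate 1 (edgeR adjusted p 0.0776 to 0.104). LOC_Os04g46200 measured 1.59, 1.18 and 0.570 and 0.143, 0.0596 and 0.108 (log2 fold change -3.13, SE 0.49, edgeR adjusted p = 0.00368), and LOC_Os08g37070 1.46, 1.34 and 1.08 and 0.141, 0.321 and 0.0732 (log2 fold change -2.62, SE 0.53, edgeR adjusted p = 0.00884). LOC_Os10g20450 had a log2 fold change of -2.97 (SE 0.83, edgeR adjusted p = 0.0283), and its edgeR adjusted p was 0.0538 to 0.103 without any 1 of the SP3 libraries or SP4 replicate 2. The calcium-binding LOC_Os01g72530 had -2.48 (SE 0.34, edgeR adjusted p = 0.00223), and in the cell wall gene LOC_Os03g46100 the call at -2.28 (SE 0.61, edgeR adjusted p = 0.0243) was lost without SP3 replicate 1 or 2 or any 1 of the SP4 libraries (edgeR adjusted p 0.0512 to 0.0907). Some of these genes could pass the count filter only through the group where they were higher. Among them were LOC_Os10g32990 and LOC_Os01g04380, with 3 and 13 reads over SP3. LOC_Os10g20450, LOC_Os08g37070, LOC_Os03g46100 and LOC_Os04g46200 had 11, 11, 14 and 18 over SP4.

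Among groups named by gene ontology, the 7 members with a transporter activity term gave 2 genes higher in FP4 than SP4, 4 that passed neither threshold and 1 untested; in SP4 versus SP3, 1 fell and 6 passed neither. The 4 cell wall members gave 0 higher, 1 lower, 2 neither and 1 untested in the first comparison, and 2 higher and 2 lower in the second. Of 5 members with an oxygen binding term, 2 were higher and 1 lower in FP4, and in SP4 versus SP3 1 was higher, 1 lower, 2 neither and 1 untested. Of 4 members of energy metabolism, 3 were higher in FP4 and 2 fell in SP4 versus SP3. Of 5 members with a biotic stimulus term, 3 were higher in FP4 and 2 fell in sterile panicles. Over all genes, 15.4% were higher and 6.87% lower in FP4 versus SP4, and 12.8% and 6.85% in SP4 versus SP3. These counts are small, and the lists came from genes that differed in these samples.

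Some members were also neighbours by locus number. Within a difference of 20 in the locus number, which was set after the values were seen, 11 members formed 5 sets, on chromosomes 2, 3, 6, 10 and 11. Of these 11, 7 were higher in FP4 than SP4, 3 passed neither threshold and 1 went untested, and between SP3 and SP4 6 fell and 1 rose. Over all members tested, 37.9% were higher in FP4 and 18.1% fell in sterile panicles, and over all genes 15.4% and 6.85%, and since the sets were picked after the values were seen, nothing is read from the difference. LOC_Os03g61150 and LOC_Os03g61160 share their term; the second had 13.8, 18.5 and 17.1 FPKM in FP3, with SP3 at 2.25, 2.09 and 1.09, FP4 at 6.95, 6.65 and 3.71 and SP4 at 0.384, 0.713 and 0.686. LOC_Os11g26760, LOC_Os11g26780 and LOC_Os11g26790 had FP3 means of 11.1, 77.8 and 66.2 FPKM and FP4 means of 3.90, 30.3 and 17.4. Near-identical neighbours can share reads, so the split between such genes is uncertain.

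In 7 members the highest FP3 library exceeded the lowest by more than 2-fold, and the pattern differed by gene. Among them were the first-ranked LOC_Os03g51600 and the NAC gene LOC_Os01g66120, whose values are given above. LOC_Os01g57250 had 233, 228 and 18.1 FPKM in FP3, with SP3 at 0.00124, 7.72 and 195, FP4 at 28.9, 6.38 and 7.10 and SP4 at 42.4, 71.9 and 1.27, so SP3 replicate 3 lay near the first FP3 libraries and FP3 replicate 3 did not. LOC_Os01g70860 had 1.73, 20.6 and 13.9 FPKM in FP3, with SP3 at 2.09, 0.916 and 0.860, FP4 at 10.2, 1.00 and 2.82 and SP4 at 3.85, 0.857 and 2.60. LOC_Os05g36186 had 52.4, 18.7 and 52.6 FPKM in FP3, LOC_Os02g58670, with a flower development term, 7.33, 16.6 and 15.9, and LOC_Os04g57630 3.93, 4.997 and 1.503. LOC_Os01g68500, described by an Arabidopsis proline-rich receptor-like kinase, was even in FP3 but had 0.0601, 0.200 and 16.4 FPKM in SP3 and 12.8, 0.00354 and 2.67 in SP4.

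**Figure D5:**
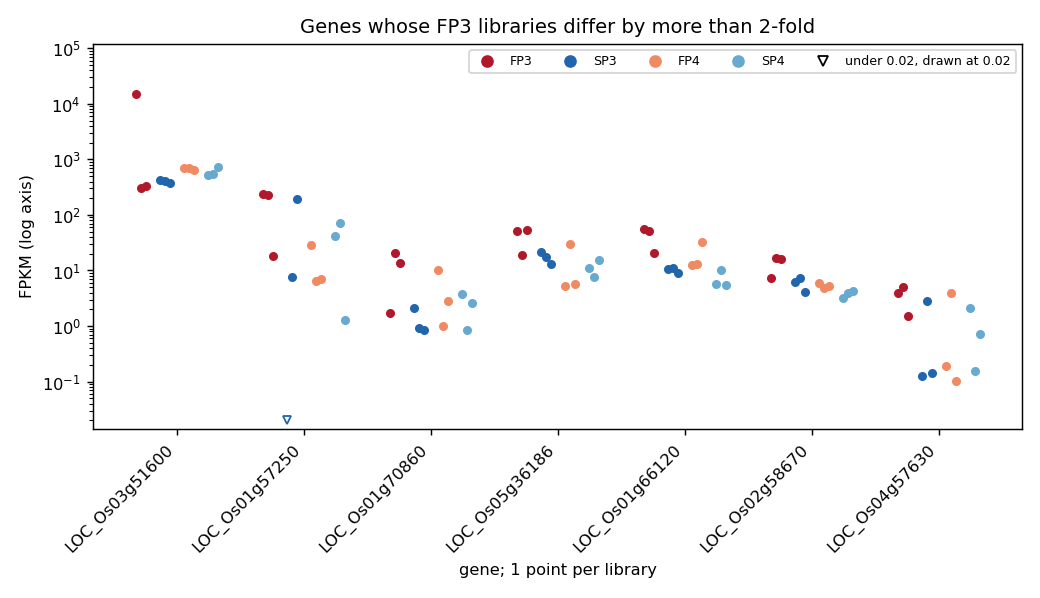
FPKM (log axis) in each of the 12 libraries for the 7 members whose FP3 libraries differ by more than 2-fold, coloured by group. In LOC_Os03g51600 the value of FP3 replicate 1 (15202 FPKM) stands apart, and in LOC_Os01g57250 that of FP3 replicate 3 (18.1 FPKM) lies far below the other FP3 libraries.

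The limit of 150 genes fell in a continuous run of scores. Just inside were LOC_Os03g15970 (1.753), LOC_Os02g32140 (1.7501) and LOC_Os08g01370 (1.7499), and just outside LOC_Os01g52730 (1.7495), LOC_Os02g26470 (1.7415) and LOC_Os03g43720 (1.7402). Leaving out any 1 library kept at least 134 of the 150, and 99 stayed whichever library was left out. In the contrasts that the rule used, 138 of 150 members were higher in FP3 than SP3 (14.8% of all genes) and 0 lower (6.74%), and 106 were lower in FP4 than FP3 (6.13%) and 0 higher (12.9%). Their libraries did not overlap, with FP3 above, in 144 members against SP3 (27.1%) and 144 against FP4 (29.7%), and in 0 with FP3 below (23.6% and 27.8%). The choice of members by group means made this likely, and nothing is read from it.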

How the data were processed

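RNA-seq and ATAC-seq data of WXS panicles were analysed. The authors aligned RNA reads to MSU7 with HISAT2 and deposited whole-number counts per gene, estimated by StringTie, together with FPKM made by the authors. ATAC-seq reads were mapped by the authors using Bowtie2, and they called THSs in each library with MACS, whose deposited score is −10log10 of p. Counts per library ranged from 30577833 to 51193158. The rule for the 150 members used FPKM. Tests used the counts: edgeR (4.0.16, R 4.3.3) quasi-likelihood, filterByExpr, TMM, with Benjamini-Hochberg adjustment over all genes, and a call needing over 1 log2 unit and an adjusted p under 0.05. Replicates are biological by the series' design, but p-values measure the spread between these 3 libraries a group. Alternatives used DESeq2 (1.42.0), limma (3.58.1) with FPKM on a log2 scale after adding 1 or 0.1, other filters and scalings, and left-out libraries; scripts were tested on simulated data. Named genes were the 10 of highest score, the 10 of highest FP3 mean, the 3 on each side of the limit, the 2 least and 2 most variable in FP3, and the 5 largest called changes in each direction per tested comparison among genes whose replicates did not overlap; genes with a product or symbol, at regions, in term groups, beside each other or with uneven replicates were named after their values were seen. The members and lists were chosen with earlier results of these data known. Gene positions, protein families and promoter sequences were not used here.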

Additional observations from a re-analysis of the deposited data

Results flagged for a closer look

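In 12 of the FP3-peaking genes, every FP3 library lay above every SP3 library while every FP4 library lay below every SP4 library. The rule chose genes high in FP3 over SP3, so the difference between stages was not tested. Of the 140 members tested in FP4 versus SP4, 11 had this pattern (7.86%), against 509 of 24645 genes (2.07%), and nothing is read from this since the choice of members fixed the FP3 side. FP4 lay below SP4 in 28.4% of all genes, a larger share than among the members. The ratio of the FP4 mean to the SP4 mean FPKM was 0.529 for LOC_Os01g50940, 0.0725 for LOC_Os03g08930, 0.0466 for LOC_Os03g12510, 0.218 for LOC_Os04g23140, 0.304 for LOC_Os04g36750, 0.247 for LOC_Os05g28210, 0.675 for LOC_Os06g14420, 0.611 for LOC_Os06g21910, 0.621 for LOC_Os06g36330, 0.412 for LOC_Os06g39370, 0.437 for LOC_Os07g47670 and 0.728 for LOC_Os08g01370. Of these, LOC_Os03g08930, LOC_Os03g12510, LOC_Os04g36750, LOC_Os05g28210 and LOC_Os07g47670 were called lower in FP4 by edgeR, LOC_Os04g23140 was not tested for low counts, and the other 6 passed neither threshold.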

How the results depend on the processing

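The member counts in both tested comparisons kept their direction under all alternatives run, and no result reversed. In SP4 versus SP3, however, the excess of lower members (25 against 15 higher) was small in some settings. It was 17 against 16 of 139 members without SP3 replicate 2, where 1438 of 24111 genes were lower and 2826 higher. Among members kept whichever library was left out, it was 15 against 13 of 90, beside 1617 lower and 3022 higher of 23601 genes. Over all genes, fewer were thus lower than higher in both settings, unlike among the members. With limma on log2(FPKM + 1), a scale that shrinks low genes, calls fell to 1789 higher and 704 lower of all genes and 34 and 3 of the members in FP4 versus SP4, and to 1315, 701, 6 and 10 in SP4 versus SP3. With at least 10 counts in every library, which tests fewer genes, 2441 of 21080 genes were higher in FP4 than SP4 and 1268 lower. Of 126 members tested this way, 48 were higher and 4 lower. In SP4 versus SP3, the same filter gave 2241 higher and 1155 lower of 20364 genes, and 10 higher and 19 lower of 119 members. Scaling by library totals moved the median of all genes in FP4 versus SP4 to −0.107 and gave 43 members higher and 6 lower. Among members kept whichever library was left out, an alternative added after seeing the data, 33 of 91 were higher and 3 lower in FP4 versus SP4, and 13 of 90 were higher and 15 lower in SP4 versus SP3. Leaving out 1 library at a time gave 3600 to 3955 genes higher and 1585 to 1697 lower, 48 to 53 and 4 to 6 members in FP4 versus SP4; 2493 to 3233, 1435 to 2054, 12 to 16 and 17 to 29 in SP4 versus SP3; and at least 134 members by the rule.

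The rule shared 118 of 150 members with a constant of 0.1, 127 with 1, 129 with medians and 114 with CPM. Of the genes named by level, score, product or change, 8 of the 20 called in FP4 versus SP4 and 12 of the 17 called in SP4 versus SP3 lost the call under at least 1 alternative, and 5 of the 17 not called in FP4 versus SP4 and 0 of the 19 in SP4 versus SP3 gained one. The alternatives for annotated families, promoter motifs and the share of members with upstream THSs were not run, since gene positions and promoters were not used here.

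Replicate numbers did not pair the libraries: the correlations of same-numbered libraries lay between −0.0185 and 0.0237. A replicate block gave 50 members higher and 5 lower (3466 and 1518 of all genes) in FP4 versus SP4, and 15 and 23 (2748 and 1405) in SP4 versus SP3. Under the block, edgeR adjusted p-values were 0.101 for LOC_Os01g66120 and 0.0965 for LOC_Os01g64120 in FP4 versus SP4 and 0.0905 for LOC_Os07g13234 in SP4 versus SP3, so these 3 calls were not made, and no other call of a named gene changed.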
